A study of Vitis vinifera and Vitis x champinii x Vitis riparia and Vitis cinerea var. helleri x Vitis rupestris with 22 samples.

Results

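LCL1 and APRR7 are 2 of the 26241 grapevine genes on the array. They were chosen because their transcripts differed between salt-treated and control roots in these same samples, so the salt values below are a description without a test. LCL1 is the transcript GSVIVT01025544001 of gene VIT_08s0040g03220, which its identifier places on chromosome 8, and its annotation reads LHY/CCA1-like 1. APRR7 is the transcript GSVIVT01032644001 of gene VIT_13s0067g03390 on chromosome 13, annotated as pseudo-response regulator 7, and it was matched to its array feature through the study's table of salt-responsive genes. Each gene had 2 different 60-base probes, and the probe that the study's table lists is called the first probe. The exon or UTR that each probe covers was not given in the sources used here.

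Roots came from rooted leaves, which are excised leaves that form roots from the petiole and are then grown in aerated nutrient solution. The varieties were Cabernet Sauvignon (Vitis vinifera), K51-40 (Vitis champinii × Vitis riparia) and 140 Ruggeri (Vitis berlandieri × Vitis rupestris), each propagated from cuttings. Controls received nutrient solution, and salt-treated plants received the same solution with 50 mM Cl- for 4 days. Roots of 4 rooted leaves were pooled for each array, and each treatment had 4 arrays in Cabernet Sauvignon, 4 arrays in K51-40 and 3 arrays in 140 Ruggeri. The probes were designed on Vitis vinifera transcripts, whereas both rootstocks are hybrids of other Vitis species. The hour of harvest was not given in the sources used here.

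The plant circadian clock is a set of transcription factors that repress or activate each other in turn, so that each transcript peaks at its own time of day. In Arabidopsis, the MYB factors CCA1 and LHY peak around dawn, pseudo-response regulators such as PRR7 follow during the day and repress them, and REVEILLE MYB factors activate genes of the afternoon and evening together with LNK coactivators. The homolog that the study's annotation gives for LCL1 is the Arabidopsis locus of REVEILLE 8, and that for APRR7 is the locus of PRR7. The clock also runs in roots, where it is known to receive signals from the shoot and from light.

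The study measured LCL1 by qRT-PCR as well, and its primers are shown because they are the sequences that define its LCL1 transcript outside the array. They are written in lower case throughout, 5′ to 3′, with 20 bases each, and no primer pair for APRR7 was used here.
LCL1 forward: ctatcaacttgtctagccct
LCL1 reverse: tctatttggtagtccttcgg

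All levels are the authors' normalised log2 values, unless scanner values are named. The 22 processed columns had medians between 7.53 and 7.55, and the raw signal of the median spot was between 4 and 14.8 times its local background. All 4 probes of LCL1 and APRR7 were well above background on all 22 arrays. The scanner file labelled Cabernet Sauvignon control replicate 3 correlated with its own processed column at r = 0.930 and with that of K51-40 control replicate 1 at r = 0.989, whereas the other 21 scanner files matched their own column best, at r of at least 0.992. Its processed column resembled its own group (r between 0.994 and 0.996 across probes). Signal and background flags came from the scanner files, so detection is not established for that Cabernet Sauvignon array. Markers of root and leaf were searched for only in the study's supplementary gene tables, not among all genes of the array. The 4 root markers found (NRT1.8, TIP2;3, NAXT1 and NIP1.2) were well above background on 22 arrays with at least 1 probe each, and so was the light-harvesting gene LHCB6, the only leaf marker found. All are bulk values, in which fewer cells of a type and less RNA per cell cannot be told apart.

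LCL1 was lower in salt-treated than in control roots of all 3 varieties. The log2 difference of the first probe was -0.57 (SE 0.124) in Cabernet Sauvignon, -0.85 (SE 0.124) in K51-40 and -0.56 (SE 0.144) in 140 Ruggeri, or 1.48-, 1.80- and 1.47-fold. In Cabernet Sauvignon, the first LCL1 probe read 8.01, 7.93, 7.98 and 8.02 in control replicates 1 to 4 and 7.64, 7.14, 7.40 and 7.49 in salt replicates 1 to 4. The control arrays lay close together (7.98 ± 0.0405, SD, n = 4), and all salt arrays were below them with a wider spread (7.42 ± 0.208, SD, n = 4). In K51-40, the levels were 9.82, 9.43, 9.66 and 9.68 in control roots and 9.09, 8.52, 8.56 and 9.03 in salt-treated roots. The salt arrays of K51-40 fell into a pair near 9 and a pair near 8.5, and all were below the lowest control, replicate 2. In 140 Ruggeri, the levels were 8.86, 8.94 and 8.92 in control roots and 8.51, 8.32 and 8.21 in salt-treated roots, again without overlap.

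The second LCL1 probe gave the same direction and similar sizes. It read 8.51, 8.49, 8.63 and 8.46 in Cabernet Sauvignon controls and 7.99, 7.80, 7.90 and 7.83 with salt, a log2 difference of -0.64 (SE 0.135). In K51-40 it read 10.32, 9.88, 10.15 and 10.39 in controls and 9.79, 9.10, 9.12 and 9.57 with salt, a difference of -0.79 (SE 0.135). Here control replicate 2 lay just above salt replicate 1, and the groups did not overlap. In 140 Ruggeri it read 9.89, 9.96 and 9.99 in controls and 9.63, 9.44 and 9.19 with salt, a difference of -0.53 (SE 0.156). Without Cabernet Sauvignon control replicate 3, whose scanner file did not match, the Cabernet Sauvignon differences of the 2 LCL1 probes were -0.57 and -0.60. The leaf marker LHCB6 differed with salt by -0.11 (SE 0.216), -0.62 (SE 0.216) and -0.11 (SE 0.249) in Cabernet Sauvignon, K51-40 and 140 Ruggeri with its first probe and by -0.19, -0.70 and -0.06 with its second, and its part in the LCL1 values was not tested. LHCB6 is itself in the study's table of salt-responsive genes, drawn up from these same arrays.

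**Figure D1:**
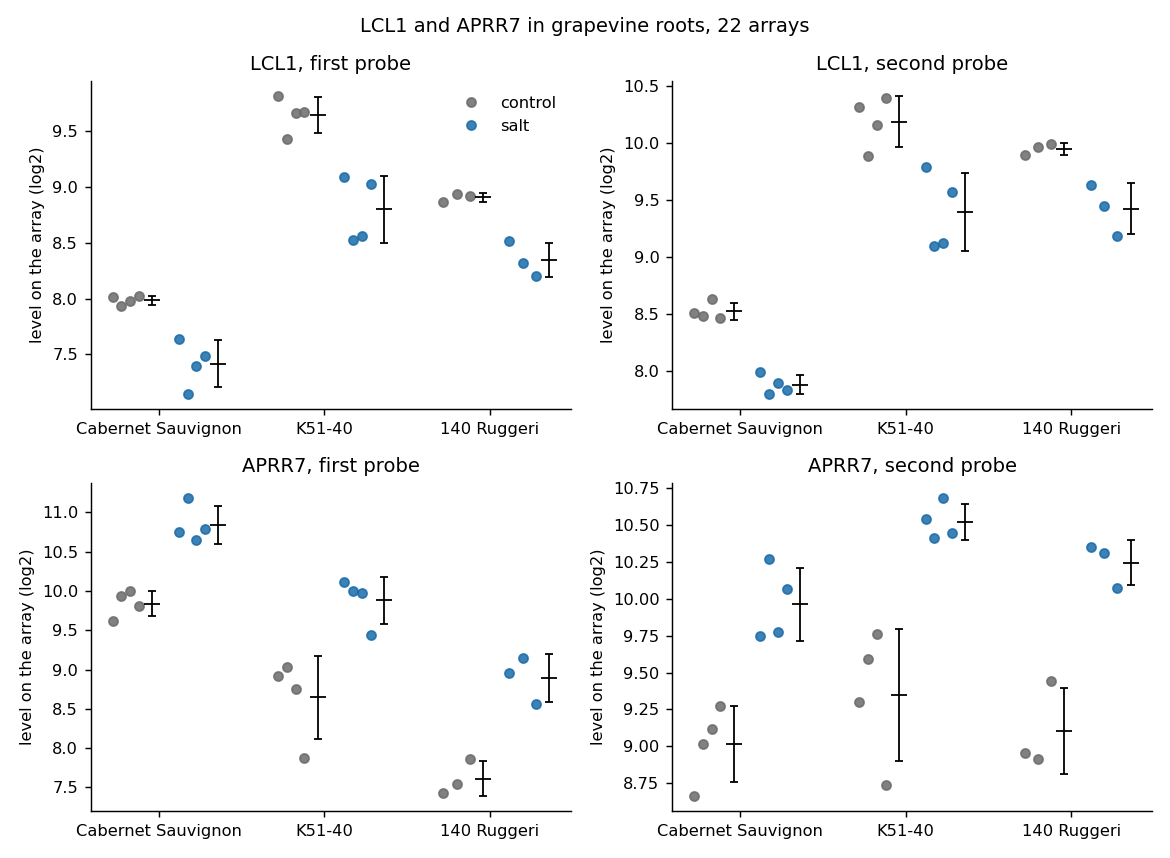
Level (log2, y axis) of LCL1 (top) and APRR7 (bottom) with the first and the second probe of each gene, for control (grey) and salt-treated (blue) roots of the 3 varieties. Each point is 1 array, and the bar beside each group is its mean ± SD (n = 4, or 3 for 140 Ruggeri). In every variety and with both probes the salt arrays of LCL1 lie below all control arrays and those of APRR7 lie above them.

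APRR7 moved the opposite way, with more transcript in salt-treated roots of every variety. The log2 difference of the first probe was 1.00 (SE 0.205) in Cabernet Sauvignon, 1.23 (SE 0.205) in K51-40 and 1.28 (SE 0.236) in 140 Ruggeri, or 2.00-, 2.35- and 2.43-fold. In Cabernet Sauvignon, it read 9.62, 9.93, 9.99 and 9.81 in control replicates 1 to 4 and 10.75, 11.19, 10.64 and 10.79 in salt replicates 1 to 4. Every salt array was above every control, and salt replicate 2, the highest for APRR7, was also the lowest for LCL1. The salt arrays of the other varieties did not repeat this. Salt replicate 1 of K51-40 was the highest of its group for both genes, and salt replicate 3 of 140 Ruggeri the lowest of its group for both. In K51-40, the levels were 8.92, 9.03, 8.76 and 7.88 in control roots and 10.12, 9.99, 9.98 and 9.44 in salt-treated roots. Control replicate 4 and salt replicate 4 were the lowest of their groups, and without that control array the K51-40 difference was 0.98. In 140 Ruggeri, the levels were 7.43, 7.55 and 7.86 in control roots and 8.96, 9.15 and 8.56 in salt-treated roots, which did not overlap.

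With the second APRR7 probe, Cabernet Sauvignon controls read 8.66, 9.02, 9.12 and 9.27 and salt-treated roots 9.75, 10.27, 9.77 and 10.07, a log2 difference of 0.95 (SE 0.182). K51-40 read 9.30, 9.59, 9.76 and 8.73 in controls and 10.54, 10.41, 10.69 and 10.44 with salt, a difference of 1.17 (SE 0.182). Control replicate 4 was again the lowest array of its group, whereas the 4 salt arrays lay within a narrow range (10.52 ± 0.124, SD, n = 4). In 140 Ruggeri, it read 8.95, 8.91 and 9.44 in controls and 10.35, 10.31 and 10.07 with salt, a difference of 1.14 (SE 0.21). Without Cabernet Sauvignon control replicate 3, the Cabernet Sauvignon differences of the 2 APRR7 probes were 1.05 and 0.98.

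Control and salt arrays thus did not overlap for either probe of either gene in any variety. Of all 52478 probes, 9.04% did not overlap in Cabernet Sauvignon, 7.47% in K51-40 and 12.4% in 140 Ruggeri, and 0.798%, 2.1% and 0.0343% were called as different with salt (limma adjusted p of at most 0.05 and a log2 difference of at least 0.5). Because LCL1 and APRR7 were chosen on this contrast, nothing is read from these shares. The median absolute salt difference over all probes was 0.0994, 0.103 and 0.101. The salt differences of the 3 varieties had the same sign for each gene, and the gaps between them were not tested. The widest gap for the first LCL1 probe was between 140 Ruggeri and K51-40, at 0.29 (SE 0.19), and for APRR7 it was between 140 Ruggeri and Cabernet Sauvignon, at 0.28 (SE 0.312).

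The arrays were scanned on 2 dates, and all arrays of 140 Ruggeri belonged to 1 of them. Within the dates, the salt difference of the first LCL1 probe was -0.58 on either date in Cabernet Sauvignon, and -0.82 and -0.87 in K51-40. That of APRR7 was 1.12 and 0.91 in Cabernet Sauvignon and 1.08 and 1.39 in K51-40. Both directions therefore held inside each date that contained both treatments. On the slides that held both treatments of a variety, the first LCL1 probe differed by between -0.87 and -0.58 and the first APRR7 probe by between 0.91 and 1.60. These comparisons rest on few arrays. Cabernet Sauvignon had 1 control and 2 salt arrays on the second date, and 140 Ruggeri had 1 of each on slide 1. Slide 4 held the arrays of the second date, so its values repeat those of that date. With the second probes, the smallest differences were -0.44 for LCL1 (K51-40, slide 3) and 0.65 for APRR7 (Cabernet Sauvignon, second date).

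Between the varieties, LCL1 was lowest in Cabernet Sauvignon with both probes. Averaged over control and salt arrays, a contrast that does not depend on the salt difference, the first probe read 1.52 (SE 0.0879) higher in K51-40 than in Cabernet Sauvignon (limma adjusted p = 1.41e-12) and 0.93 (SE 0.095) higher in 140 Ruggeri (adjusted p = 2.77e-08). These are 2.87- and 1.90-fold. The second probe gave 1.59 (SE 0.0955, adjusted p = 2.82e-12) and 1.48 (SE 0.103, adjusted p = 5.93e-11). Both comparisons therefore passed the test with both probes, against a background in which 32.3% of all probes were called between K51-40 and Cabernet Sauvignon and 28.9% between 140 Ruggeri and Cabernet Sauvignon. No LCL1 array of Cabernet Sauvignon reached the level of any array of the other varieties, whether treated or not. The leaf marker LHCB6 was also higher in K51-40 (0.90, SE 0.153, adjusted p = 2.52e-05) and 140 Ruggeri (0.58, SE 0.165, adjusted p = 0.00516) than in Cabernet Sauvignon with its first probe, and its part in the LCL1 difference was not tested. Without Cabernet Sauvignon control replicate 3 the first LCL1 probe gave 1.52 and 0.93.

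Averaged over treatments, both LCL1 probes read lower in 140 Ruggeri than in K51-40, and the size and the call depended on the probe. With the first LCL1 probe, 140 Ruggeri minus K51-40 was -0.60 (SE 0.095, limma adjusted p = 2.22e-05), where 20.3% of all probes were called. With the second, the difference was -0.11 (SE 0.103, adjusted p = 0.442). Control or salt arrays alone are part of the salt difference by which LCL1 was chosen. Their values are therefore given without a test. In control roots the first probe differed by -0.74 (SE 0.134), and under salt by -0.45 (SE 0.134), which is below the size required for a call.

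For APRR7, the first probe placed Cabernet Sauvignon highest, K51-40 next and 140 Ruggeri lowest. The difference was -1.08 (SE 0.145, limma adjusted p = 1.11e-06) for K51-40 minus Cabernet Sauvignon, -2.09 (SE 0.156, adjusted p = 1.87e-10) for 140 Ruggeri minus Cabernet Sauvignon and -1.01 (SE 0.156, adjusted p = 1.51e-05) for 140 Ruggeri minus K51-40. In control roots alone the first 2 were -1.19 (adjusted p = 4.1e-05) and -2.23 (adjusted p = 3.39e-08), where 32.5% and 30% of all probes were called. The 140 Ruggeri difference from Cabernet Sauvignon is 4.25-fold, which is larger than the salt difference of the same probe in any variety. The second probe of the same gene did not give this order. With it, K51-40 was 0.44 (SE 0.129) above Cabernet Sauvignon (adjusted p = 0.00495, smaller than the 0.5 required for a call), 140 Ruggeri was 0.18 (SE 0.139) above Cabernet Sauvignon (adjusted p = 0.284), and 140 Ruggeri minus K51-40 was -0.26 (SE 0.139, adjusted p = 0.141). Both comparisons with Cabernet Sauvignon were thus below 0 and called with the first APRR7 probe, and above 0 and not called with the second. The second probe was called between K51-40 and Cabernet Sauvignon when K51-40 control replicate 4 was left out (0.55, adjusted p = 0.000207).

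**Figure D2:**
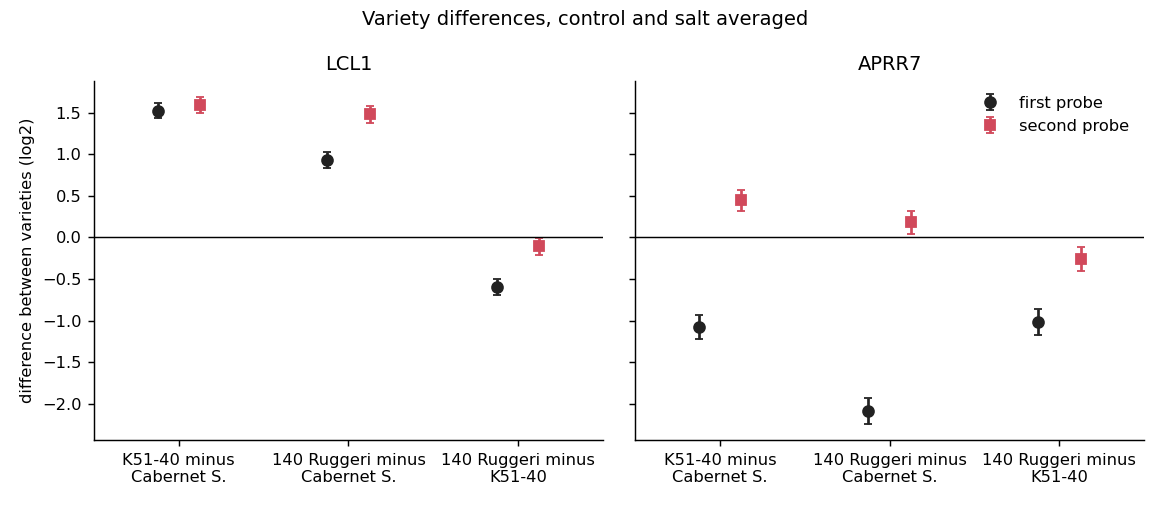
Difference between varieties (log2, y axis) of LCL1 (left) and APRR7 (right), control and salt arrays averaged, for the first probe (black circles) and the second probe (red squares), with standard errors. The probes of LCL1 lie close together for K51-40 minus Cabernet Sauvignon (1.52 and 1.59), and those of APRR7 lie on opposite sides of 0 for both comparisons with Cabernet Sauvignon.

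To measure this directly, the difference of the 2 probes of a gene within each array was compared between varieties, for all 26237 genes with 2 probes. This comparison was chosen after the APRR7 probes had been seen to differ. The first minus the second APRR7 probe was 0.82 ± 0.194 (SD, n = 4) in control and 0.88 ± 0.119 in salt-treated roots of Cabernet Sauvignon, -0.70 ± 0.283 and -0.64 ± 0.277 in K51-40, and -1.49 ± 0.114 and -1.35 ± 0.18 (n = 3) in 140 Ruggeri. Its salt differences lay between 0.06 and 0.14, and it shifted by -1.52 (SE 0.1) from Cabernet Sauvignon to K51-40 (limma adjusted p = 3.45e-11), by -2.27 (SE 0.108) to 140 Ruggeri (adjusted p = 4.46e-13) and by -0.75 (SE 0.108) between K51-40 and 140 Ruggeri (adjusted p = 9.4e-06).

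For LCL1, the same quantity shifted by -0.56 (SE 0.0598) from Cabernet Sauvignon to 140 Ruggeri (limma adjusted p = 1.08e-07) and by -0.49 (SE 0.0598) from K51-40 to 140 Ruggeri (adjusted p = 1.13e-06, just under the size for a call), with -0.07 (SE 0.0554, adjusted p = 0.37) between K51-40 and Cabernet Sauvignon. Its salt differences lay between -0.06 and 0.07. Such shifts were common among all genes between varieties and rare with salt. The probe difference was called to shift for 23.3% of genes between K51-40 and Cabernet Sauvignon, 20.5% between 140 Ruggeri and Cabernet Sauvignon and 14.2% between 140 Ruggeri and K51-40, against 0.0572%, 0.126% and 0% with salt in Cabernet Sauvignon, K51-40 and 140 Ruggeri. Whether the 2 probes meet different sequences or different transcript forms in the rootstocks was not tested.

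**Figure D3:**
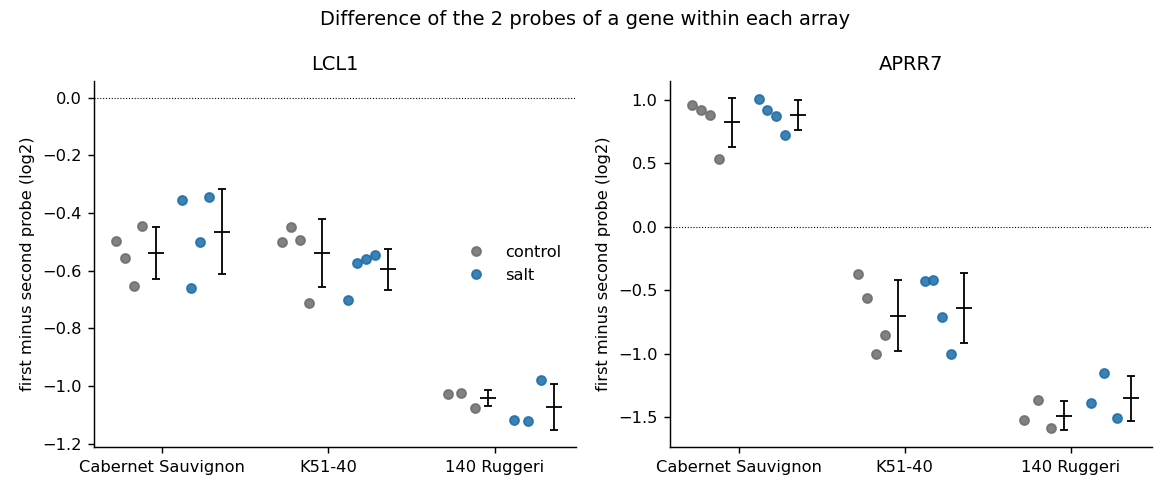
First minus second probe (log2, y axis) within each array for LCL1 (left) and APRR7 (right), in control (grey) and salt-treated (blue) roots of the 3 varieties, with mean ± SD beside each group. The control and salt arrays of a variety overlap, whereas for APRR7 the value goes from 0.82 in Cabernet Sauvignon controls to -1.49 in those of 140 Ruggeri.

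Arrays of 1 group also varied together in the 2 probes of a gene. Across the 22 arrays, the deviations from the group mean of the 2 LCL1 probes correlated at r = 0.866 (within-group permutation p = 0.00046, adjusted 0.00184; Spearman's rho = 0.79, p = 0.00216, adjusted 0.006), and those of the APRR7 probes at r = 0.757 (permutation p = 0.00156, adjusted 0.00312; rho = 0.682, p = 0.003, adjusted 0.006). Without the 2 arrays farthest from the median, r was 0.883 and 0.663. Between LCL1 and APRR7 the first probes gave r = -0.23 (permutation p = 0.401, adjusted 0.401; rho = -0.27, p = 0.286, adjusted 0.313) and r = -0.0976 without the 2 farthest arrays. The second probes gave r = -0.23 (permutation p = 0.352, adjusted 0.401; rho = -0.237, p = 0.313, adjusted 0.313), and r = -0.205 without the 2 farthest. No opposite variation of LCL1 and APRR7 among arrays of 1 group was detectable with these arrays. These 4 relations were chosen after the values had been seen.

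The other clock genes came from a search for the homologs of 41 Arabidopsis clock loci, which found 15 genes, LCL1 and APRR7 included. The search covered the study's supplementary gene tables (3193 entries with a probe on the array), not all 26241 genes. Clock genes outside those tables could not be found, so the share of clock genes that differ with salt is not known. All 13 others are in the study's table of salt-responsive genes, which was drawn up from these same arrays. Their salt directions, sizes, adjusted p values and calls, here and below, are therefore a description and not independent evidence. Nothing is read from the shares of all probes given beside them. With the probe the study lists, 5 of these 13 genes read higher with salt in all 3 varieties, 6 read lower in all 3 and 2 had mixed signs. The listed probe was well above background on all 22 arrays for 12 of the 13 genes and on 1 array for ELF3, so the sign of ELF3, 1 of the 2 mixed genes, is not a measured direction. By the test, 3 were called higher and 5 lower in Cabernet Sauvignon, where 0.543% of all probes were called higher and 0.255% lower. In K51-40, 4 were called higher and 4 lower, against 0.943% and 1.16%. In 140 Ruggeri, which has 3 arrays a group, limma called 0 of the 13, against 0.0324% of all probes higher and 0.00191% lower. An unadjusted limma p under 0.05 was found for 12 of the 13, 5 of them higher and 7 lower, with ELF3 among the lower. Of all 52478 probes, 4389 had such a p, and the 13 genes had been listed for their salt difference. With the second probe of the same genes, 3 were called higher and 6 lower in Cabernet Sauvignon, 3 higher and 1 lower in K51-40, and 0 in 140 Ruggeri. In K51-40, the LNK2, LNK4, CDF2 and CDF6 homologs were called with the listed probe and not with the second.

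These counts depended on single arrays. In Cabernet Sauvignon 8 genes were called, and 2, 3 or 4 without control replicate 1, 2 or 3, and 3, 5 or 4 without salt replicate 2, 3 or 4. In K51-40 the count of 8 became 5 or 3 without control replicate 1 or 4 and 5, 4 or 4 without salt replicate 1, 2 or 3. In 140 Ruggeri it became 1 without control replicate 3. Calls among all probes changed as well. In Cabernet Sauvignon they went from 419 to 261, 283 or 265 without control replicate 1, 2 or 3, and to 274, 302 or 278 without salt replicate 2, 3 or 4. In K51-40 they went from 1102 to 1094 or 644 without control replicate 1 or 4, and in 140 Ruggeri from 18 to 22 without control replicate 3. Calls among all probes without a K51-40 salt replicate are not given here, so nothing is read from those clock counts. The median absolute salt difference of the 13 genes was 0.93, 0.73 and 0.67 in Cabernet Sauvignon, K51-40 and 140 Ruggeri, beside 0.0994, 0.103 and 0.101 for all probes. These genes had been listed for their salt difference in these arrays, so nothing is read from this gap.

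Among the MYB factors, the gene annotated CCA1, whose Arabidopsis homolog is LHY, the dawn factor that represses evening genes, was lower with salt like LCL1. It was called in Cabernet Sauvignon (2.00-fold lower, SE 0.186 on the log2 scale, limma adjusted p = 0.00727) and K51-40 (-0.72, SE 0.186, adjusted p = 0.037), and its difference in 140 Ruggeri was -0.59 (SE 0.215, adjusted p = 0.444). No variety difference of CCA1, averaged over both treatments, was called with either probe. These differences lay between -0.20 and 0.25 (limma adjusted p of at least 0.112). In control or salt arrays alone, given without a test, the lowest was -0.38 (140 Ruggeri minus Cabernet Sauvignon, control, second probe). The highest was 0.41 (the same varieties, salt, first probe).

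Among the pseudo-response regulators, a further gene that the study also calls APRR7, VIT_06s0004g03660, has the Arabidopsis homolog PRR3, which stabilises the evening regulator TOC1. It was higher with salt by 0.93 (SE 0.215, limma adjusted p = 0.0356) in Cabernet Sauvignon, 0.87 (SE 0.215, adjusted p = 0.0286) in K51-40 and 1.01 (SE 0.248, adjusted p = 0.178) in 140 Ruggeri, the first 2 of which were called. Its 2 probes gave the same order of varieties, with K51-40 highest. For 140 Ruggeri minus K51-40, the first gave -0.65 (SE 0.164, limma adjusted p = 0.00249) and the second -0.41 (SE 0.163, adjusted p = 0.0472, under the size for a call).

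GIGANTEA, a large nuclear protein that stabilises clock and light-signalling proteins, was called higher with salt in Cabernet Sauvignon (0.93, SE 0.186, limma adjusted p = 0.0137) and K51-40 (0.92, SE 0.186, adjusted p = 0.00806), with 0.75 (SE 0.214, adjusted p = 0.267) in 140 Ruggeri. Its partner annotated Adagio protein 1, whose Arabidopsis homolog is the blue-light receptor FKF1, was called in K51-40 (1.06, SE 0.177, adjusted p = 0.00199), with 0.44 (SE 0.177, adjusted p = 0.279) in Cabernet Sauvignon and 0.64 (SE 0.204, adjusted p = 0.366) in 140 Ruggeri. The response of Adagio 1 in Cabernet Sauvignon minus that in K51-40 was -0.62 (SE 0.25), given without a test. ELF3, a scaffold of the evening complex that represses growth and clock genes at night, was well above background on 1 of 22 arrays with the listed probe and on 5 with the second, and no difference of it is read here.

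The LNK coactivators did not all move one way. The LNK2 homolog was called higher with salt in Cabernet Sauvignon (1.39, SE 0.272, limma adjusted p = 0.0112) and K51-40 (1.03, SE 0.272, adjusted p = 0.0424) and read 1.16 (SE 0.314, adjusted p = 0.233) in 140 Ruggeri. The LNK1 homolog was above its controls by 0.58, 0.50 and 0.81 in Cabernet Sauvignon, K51-40 and 140 Ruggeri, with no call. The LNK4 homolog was called lower in Cabernet Sauvignon (-1.15, SE 0.185, adjusted p = 0.00207) and K51-40 (-0.93, SE 0.185, adjusted p = 0.0077), with -0.55 (SE 0.214, adjusted p = 0.49) in 140 Ruggeri.

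Among the clock outputs, the cycling DOF factors, repressors of the flowering gene CONSTANS in Arabidopsis, passed the test as lower with salt for some members and varieties. The CDF2 homolog was called in Cabernet Sauvignon (-0.95, SE 0.217, limma adjusted p = 0.0326) and K51-40 (-0.83, SE 0.217, adjusted p = 0.0405), and the CDF6 homolog in Cabernet Sauvignon (-0.55, SE 0.131, adjusted p = 0.0432) and K51-40 (-0.58, SE 0.131, adjusted p = 0.0162). In 140 Ruggeri neither was called, at -0.67 (SE 0.25, adjusted p = 0.463) for CDF2 and -0.32 (SE 0.151, adjusted p = 0.592) for CDF6. The CDF1 homolog was 2.00-, 1.66- and 1.59-fold below its controls in Cabernet Sauvignon, K51-40 and 140 Ruggeri with the first probe, with no call, and the second probe was called in Cabernet Sauvignon (-0.95, SE 0.225, adjusted p = 0.0426). COL2, which belongs to the CONSTANS family of B-box factors, was called lower in Cabernet Sauvignon (-1.19, SE 0.288, adjusted p = 0.047), with -0.39 in K51-40 and -0.92 in 140 Ruggeri. The COR27 homolog, a cold-regulated repressor of clock genes in Arabidopsis, had mixed signs, at -0.50, 0.07 and -0.16.

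**Figure D4:**
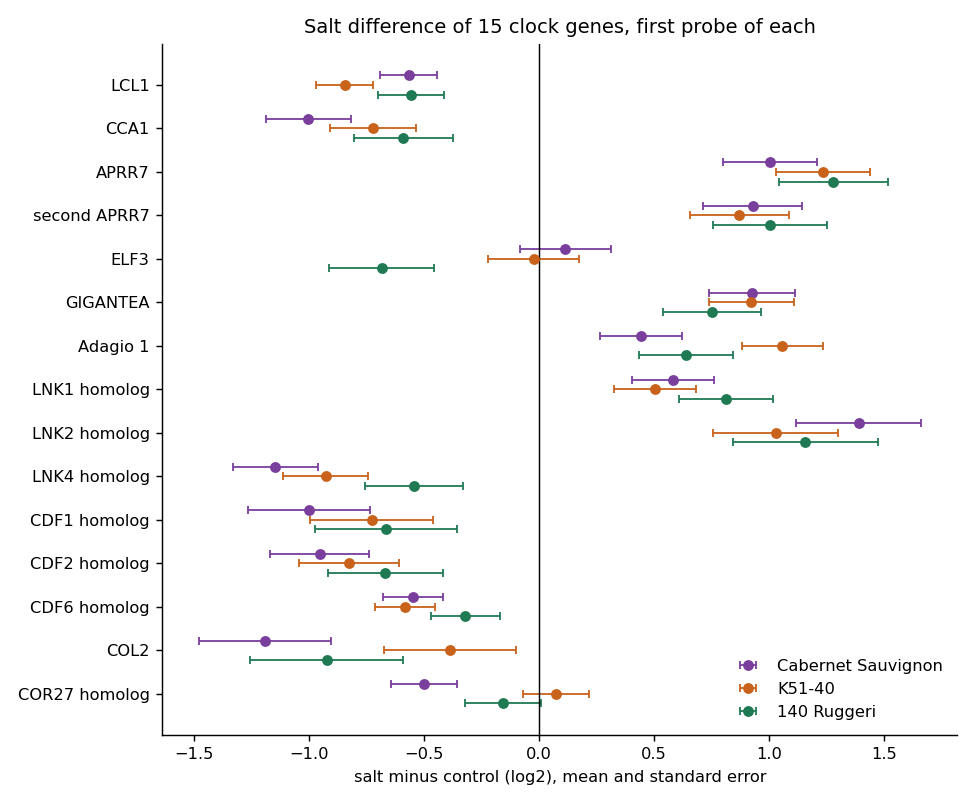
Salt minus control (log2, x axis) with standard errors for LCL1, APRR7 and the 13 other clock genes, with the probe the study lists, in Cabernet Sauvignon (purple), K51-40 (orange) and 140 Ruggeri (green). LCL1 and CCA1 lie below 0 in all 3 varieties and APRR7, VIT_06s0004g03660 (drawn as second APRR7), GIGANTEA, Adagio 1 and the LNK1 and LNK2 homologs above it. ELF3 is drawn but was well above background on 1 array.

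Between varieties, 5 of the 13 other clock genes were called higher in K51-40 than in Cabernet Sauvignon with the listed probe and 0 lower, 1 was called lower in 140 Ruggeri than in Cabernet Sauvignon and 0 higher, and 4 were called lower in 140 Ruggeri than in K51-40 and 0 higher. Of all probes, 32.3%, 28.9% and 20.3% were called in these comparisons in either direction. With the second probe, the counts higher and lower were 4 and 1, 1 and 2, and 0 and 3. The 5 were Adagio 1, COL2 and the CDF6, COR27 and LNK2 homologs, the 1 was the LNK1 homolog, and the 4 were Adagio 1, COL2, the COR27 homolog and VIT_06s0004g03660. Among these 13 genes and that probe, COL2 had the largest difference between K51-40 and Cabernet Sauvignon, at 1.33 (SE 0.203, limma adjusted p = 6.7e-06). The median difference of the 13 genes was 0.38 between K51-40 and Cabernet Sauvignon, 0.06 between 140 Ruggeri and Cabernet Sauvignon and -0.32 between 140 Ruggeri and K51-40, and with the second probe it was 0.32, -0.07 and -0.20, so that its sign turned between 140 Ruggeri and Cabernet Sauvignon. For K51-40 minus Cabernet Sauvignon, the LNK4 homolog gave 0.05 (SE 0.131, limma adjusted p = 0.778) with the first probe and -0.95 (SE 0.0917, adjusted p = 7.97e-09) with the second, which was well above background on 15 of 22 arrays. The second probe of the COR27 homolog was well above background on 8 arrays and is not compared.

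Probes of other genes were ranked by the likeness of their level to LCL1 and APRR7 over the 22 arrays, among 40733 probes that were well above background on at least 11 of the 22 arrays, with 1 probe a gene among those named. These correlations share arrays and contain the differences between varieties, and they are given without a test. The probes most like the first LCL1 probe belonged to a gene with a Rieske [2Fe-2S] domain (Pearson's r = 0.967), to 2 carboxylesterases annotated CXE12 (r = 0.963) and CXE10 (r = 0.962), to a gene annotated as unknown protein (r = 0.960) and to a gene not named here (r = 0.958). Most opposite were malate dehydrogenase (r = -0.95), which interconverts malate and oxaloacetate, the nitrate transporter NRT2.5 (r = -0.949) and an N-oxide-forming dimethylaniline monooxygenase (r = -0.945), beside 2 genes not named here. The second LCL1 probe itself had r = 0.955.

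The probes most like the first APRR7 probe belonged to a heat shock protein, VIT_17s0000g07190 (r = 0.954), to a Transformer serine/arginine-rich ribonucleoprotein (r = 0.949), and to 3 genes not named here (r between 0.937 and 0.947). Most opposite were an unnamed gene (r = -0.943), a gene annotated APETALA2 floral homeotic protein (r = -0.937) and a gene of unknown function (r = -0.931), beside 2 others not named here. The second APRR7 probe had only r = 0.446 with the first over all arrays, and r = 0.958 once the mean of each variety was removed.

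With the variety means removed, several other clock genes, but not all, moved towards the ends of the ranking. This measure contains the salt contrast by which the genes were chosen. The probes nearest to LCL1 then included the LNK4 homolog (r = 0.922, rank 8 with LCL1 itself counted), the CDF2 homolog (r = 0.903, rank 18) and CCA1 (r = 0.870, rank 34). The nearest to APRR7 included GIGANTEA (r = 0.918, rank 15), VIT_06s0004g03660 (r = 0.917, rank 16) and the LNK2 homolog (r = 0.900, rank 30). The COR27 homolog stayed far from the ends, at r = 0.247 with LCL1 (rank 9690 of 40733) and r = -0.242 with APRR7 (rank 30626). ELF3 was too dim to be ranked. LCL1 and APRR7 had r = -0.851 with each other. Over all arrays without that step, it was -0.701 between the first probes.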

How the data were processed

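Grapevine root RNA was measured on 22 single-colour custom arrays, grouped by variety and treatment as labelled. The members and gene lists were chosen with earlier results of these data known. The authors deposited, for each array, spot intensity as the scanner software Agilent Feature Extraction 10.7.3 gave it (the median signal, its background, and a background-subtracted signal). The authors also deposited log2 values per spot, made by log2 transformation, quantile normalisation and ComBat correction of batches; the batch they used was not given in the sources used here. These log2 values were used for all levels, differences and correlations outside the alternatives. Signal over background, the background flags and some alternatives came from the scanner files. Among these, the file labelled Cabernet Sauvignon control replicate 3 did not match its processed column.

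Spots of 1 probe were averaged, giving 52478 probes. The 6 groups each had a mean of their own in 1 linear model (limma 3.58.1, R 4.3.3), with Benjamini-Hochberg adjustment across the 52478 probes. Probes were called at an adjusted p of at most 0.05 and an absolute log2 difference of at least 0.5 (1.414-fold). Salt differences of LCL1 and APRR7, for which they were chosen, were not tested. Correlations within groups used 100000 permutations within groups (NumPy and SciPy). The fit was tested on simulated data with known changes. Named genes were LCL1, APRR7, the clock list, and the 5 probes of other genes most like and the 5 most opposite to each member.

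Alternatives were the scanner values with quantile normalisation, with and without ComBat by scan date, 75th percentile scaling of the processed signal, normexp (offset 50) on the median signal and its background with quantile normalisation, scan date or slide as a term, the replicate number as a block, only the varieties compared, only probes above background, within scan dates and slides, and each array left out. Per the methods, replicates are separate pools of plants, and p values measure the spread between these pools. Signal over background limits precision for dim probes, and the number of arrays limits it for all.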

Additional observations from a re-analysis of the deposited data

Results flagged for a closer look

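In 1 of 68 groups of 4 arrays examined over the clock genes, 1 array stood apart from the other 3. The CDF2 homolog, a cycling DOF factor, read 11.70 in Cabernet Sauvignon salt replicate 1, whereas the other 3 salt arrays lay between 10.87 and 11.005, and the gap was 0.833 of the range, beyond Dixon's critical value for 4 samples. Chance alone gives about 1 such group in 20. No group of LCL1 or APRR7 had such an array, and the groups of 3 of 140 Ruggeri were not examined.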

How the results depend on the processing

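No salt difference of LCL1 or APRR7 changed sign under any alternative. For the first LCL1 probe in Cabernet Sauvignon, the scanner values gave -0.79 with ComBat, -0.82 without it, -0.95 with 75th percentile scaling and -0.73 with normexp, against -0.57, and -0.57 with ComBat once the scanner file labelled Cabernet Sauvignon control replicate 3 was left out. Within slide 1 it was -0.83, and within slide 3 the value of 140 Ruggeri was -0.68. For the first APRR7 probe, slide 1 gave 1.41 in Cabernet Sauvignon and 1.60 in 140 Ruggeri, and slide 3 gave 0.92 in 140 Ruggeri. Leaving out single arrays gave -0.64 to -0.48 in Cabernet Sauvignon, -0.94 to -0.75 in K51-40 and -0.64 to -0.49 in 140 Ruggeri for LCL1, and 0.89 to 1.07, 0.98 to 1.38 and 1.15 to 1.44 for APRR7. Of the variety differences, that of the second APRR7 probe between K51-40 and Cabernet Sauvignon was called without K51-40 control replicate 4 (0.55). With salt arrays only, given without a test, it was 0.56, and that of the first LCL1 probe between the rootstocks was -0.45. The probe difference of LCL1 between the rootstocks was -0.86 from scanner values without ComBat, -0.95 with 75th percentile scaling and -0.83 with normexp, against -0.49. That of APRR7 was -1.23, -1.41 and -1.12 under the same settings and -1.10 with ComBat, against -0.75. The cause was not tested.

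The clock genes called with salt numbered 8 in Cabernet Sauvignon, 8 in K51-40 and 0 in 140 Ruggeri. The scanner values gave 2 and 2 with ComBat, 0 and 1 without it, 0 and 1 with 75th percentile scaling and 0 and 1 with normexp in Cabernet Sauvignon and K51-40, and 7 and 8 with ComBat when the file labelled Cabernet Sauvignon control replicate 3 was left out. Slide in the model gave 5 and only the arrays of the variety gave 3 in K51-40. Calls among all 52478 probes also moved, from 419 in Cabernet Sauvignon and 1102 in K51-40. The scanner values gave 206 and 537 with ComBat, 71 and 142 without it, 72 and 110 with 75th percentile scaling and 86 and 127 with normexp. With ComBat and that file left out they gave 476 and 1325. In K51-40, slide in the model gave 1421 and only the arrays of the variety gave 377. When single arrays were left out, the clock genes called numbered 2 to 8 in Cabernet Sauvignon, 3 to 8 in K51-40 and 0 to 1 in 140 Ruggeri. Blocking on replicate number (correlation 0.221) gave 10, 8 and 1 clock genes in the same order of varieties. Calls among all probes then rose as well, from 419, 1102 and 18 to 758, 1587 and 130. Nothing is therefore read from the clock counts of the block. Same-numbered control and salt arrays deviated together in K51-40 (r between 0.308 and 0.427) and 140 Ruggeri (0.242 to 0.346), but not in every pair of Cabernet Sauvignon (-0.352 to 0.373), and the block changed no call of LCL1 or APRR7 between varieties. The 75th percentile scaling moved the median of all probes by up to 0.167 between varieties. Of the 10 genes named as most like or opposite, 0 were shared for LCL1 and 1 for APRR7 after the variety means were removed, and 3 and 4 with Spearman's rho.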
